A study of Ascodesmis nigricans with 6 samples.

Results

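The genes described here are 97 of the 9622 gene models of Ascodesmis nigricans, and they were abundant in every mycelium library while few of their reads were found in protoapothecia. They were chosen by measured counts, as CPM, the raw count of a gene over the total of its library, times 1000000. Each gene had at least 50 CPM in all 4 mycelium libraries, and both protoapothecia libraries were at 5% or less of the lowest mycelium library. A member also needed at least 1 raw count in protoapothecia, and its lower vegetative library had to lie under 3 times its higher sexual library. All 6 libraries entered this choice, so the levels and differences below are a description of the genes and no test of them.

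Ascodesmis nigricans is a filamentous ascomycete of the cup fungi, and all 6 libraries come from strain CBS 389.68. Each of 3 groups has 2 replicates, which the submitters call independent biological ones. The groups are labelled total sexual mycelium, total vegetative mycelium, and protoapothecia isolated by laser microdissection, in which selected cells are cut out of a fixed culture under a microscope. All were grown on slides for 3 days at 25 °C with 150 to 200 µl of rabbit food medium with 0.8% agar, fixed in ethanol, and their RNA was linearly amplified. The labels do not say what made a culture sexual or vegetative. Vegetative mycelium is the network of tip-growing hyphae that explores and feeds on the substrate, secreting enzymes and taking up nutrients. In sexual development of cup fungi, female organs become wrapped in sterile hyphae, and the resulting young fruiting body, the protoapothecium, later opens as an apothecium lined with spore sacs.

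The library totals ran from 11589777 to 12835772 counts. In these bulk samples, fewer cells of a type and less RNA per cell cannot be told apart. Laser microdissection is given for the protoapothecia alone, so the tissue and the way of collection cannot be told apart either. The gene models carry an identifier and an mRNA length but no name, product or position, so the genes are given by identifier, no marker gene could be used to check the tissues, and no role is given to any of them.

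Of all gene models, 1741 reached 50 CPM in each of the 4 mycelium libraries. Of these, 106 were at or under the 5% limit in protoapothecia, and all 106 had at least 1 count there. The limit on the ratio of vegetative to sexual mycelium removed 9 of the 106. The 97 members were thus 5.57% of the abundant mycelial genes, and all 97 passed the filter on low counts used in the fit. The other 1635 abundant genes, those above the 5% limit, serve below as the set most like the members.

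The level left in protoapothecia formed a continuum across the 1741 abundant genes, without a gap at 5%. The higher protoapothecia library was above the lowest mycelium library for 759 genes, lay at 50 to 100% of it for 354, at 25 to 50% for 257, at 10 to 25% for 190 and at 5 to 10% for 75. Among the members, 24 fell between 4 and 5%, 20 between 3 and 4%, 14 between 2 and 3%, 19 between 1 and 2%, and 9 between 0.5 and 1%. The lowest band, at 0.5% or less, held 11 members.

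**Figure D1:**
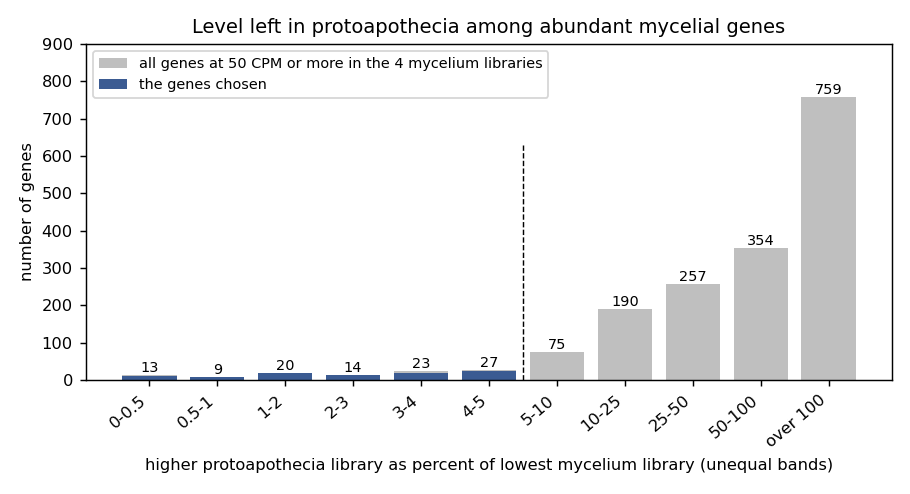
Number of abundant mycelial genes (grey bars, numbers on top) and of the chosen genes (blue) by the level of the higher protoapothecia library, as a percentage of the lowest mycelium library, in bands of unequal width. The dashed line marks the 5% limit, where the band below holds 27 genes and the wider band above holds 75.

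Together the 97 genes took nearly the same share of the counts in every mycelium library. The share was 4.94% and 5.10% in the sexual libraries, 4.97% and 4.99% in the vegetative libraries, and 0.0568% and 0.0434% in the protoapothecia libraries. As group means this was 5.02% ± 0.115 in sexual mycelium, 4.98% ± 0.0120 in vegetative mycelium and 0.0501% ± 0.00948 in protoapothecia (SD, n = 2). The sexual and vegetative shares differed by less than the spread between the sexual replicates. This evenness belongs to the scale of library totals, and other scalings, given below, set the members lower in sexual mycelium. The leading genes differed between libraries: proteinId380532 took 20.8% of the members' counts in sexual replicate 1, proteinId382525 took 20.1% in sexual replicate 2, and proteinId347804 took 12.6% and 17.2% in the vegetative libraries.

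The median member had 165 and 196 CPM in the sexual libraries, 143 and 167 CPM in the vegetative libraries, and 2.54 and 1.97 CPM in protoapothecia. The members' ranks by level showed the same contrast. Their median rank among all gene models was 1081 and 974 in the sexual libraries and 987 and 858 in the vegetative libraries, against 7060 and 7156 in protoapothecia. Of the 100 most abundant genes, 13 and 9 were members in the sexual libraries, 5 and 5 in the vegetative libraries, and 0 and 0 in protoapothecia. The highest rank of any member in protoapothecia was 1900 and 2609.

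**Figure D2:**
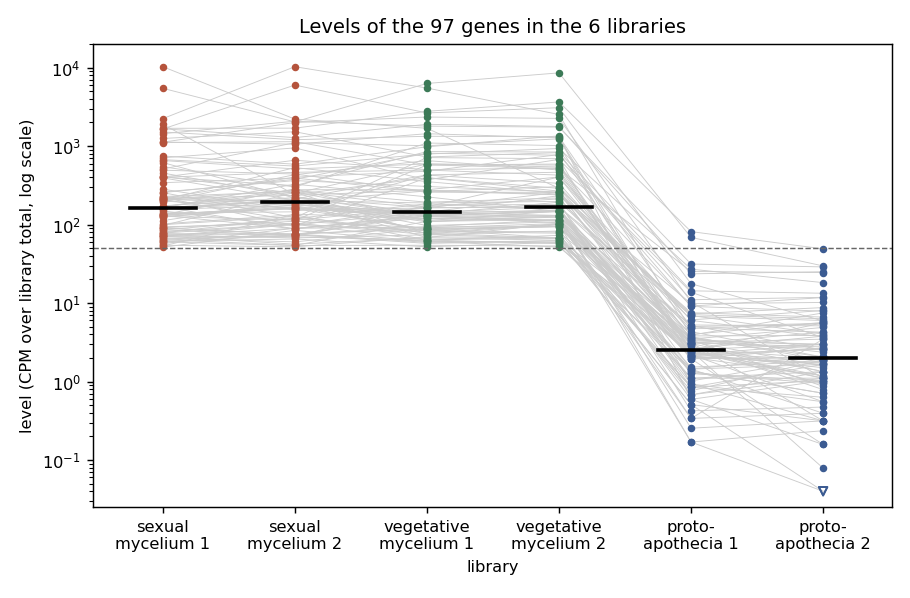
Level of each of the 97 genes (points, joined by grey lines) in each of the 6 libraries, in CPM over the library total on a log scale. Black bars are medians, the dashed line is the 50 CPM minimum, and the open triangle at the bottom stands for the 2 genes with 0 counts in protoapothecia replicate 2. All points of the mycelium libraries lie above the dashed line, and the protoapothecia medians are 2.54 and 1.97 CPM.

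The largest levels per length belonged to 6 genes, compared here as mean CPM per kb of mRNA over the 4 mycelium libraries. The highest was proteinId347804, with an mRNA of 537 bases and 10396 ± 5043 CPM per kb (SD over the 4 libraries). Its level was 5447 and 2035 CPM in the sexual libraries, 6280 and 8568 CPM in the vegetative libraries, and 68.7 and 29.7 CPM in protoapothecia. Both vegetative libraries were above both sexual ones, and sexual replicate 2 was the lowest of the 4.

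The second gene by level per length, proteinId372372, has an mRNA of only 264 bases and reached 4642 ± 641 CPM per kb. It was even across mycelium, with 1127 and 1058 CPM in the sexual and 1438 and 1279 CPM in the vegetative libraries. In protoapothecia it had 29 counts in replicate 1 and 1 count in replicate 2, so the size of its difference rests on few reads. The mean mycelium level was 498 times that of protoapothecia replicate 1 (95% counting interval 347 to 744) and 15521 times that of replicate 2 (interval 2786 to 613060).

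The next pair, proteinId382525 and proteinId380532, had the widest spread relative to the mean among these 6. The gene proteinId382525 (1296 bases, 3960 ± 2876 CPM per kb) was at 2238 and 10268 CPM in the sexual libraries and at 5495 and 2527 CPM in the vegetative libraries, so that both vegetative libraries lay between the sexual ones. Its protoapothecia levels were 3.82 and 3.87 CPM, from 45 and 49 counts. For proteinId380532 (1064 bases, 3398 ± 4242 CPM per kb) the sexual libraries gave 10276 and 2210 CPM, the vegetative libraries 1687 and 291 CPM, and protoapothecia 6.78 and 5.995 CPM. The highest of its 4 mycelium libraries was 35.4 times the lowest, the widest range among the members, and the lower sexual library was still above both vegetative ones.

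In the remaining pair of the 6, proteinId375359 (1230 bases, 2718 ± 1517 CPM per kb) was at 1651 and 5994 CPM in sexual mycelium, 2645 and 3085 CPM in vegetative mycelium, and 17.6 and 5.92 CPM in protoapothecia. Its sexual libraries lay on either side of the vegetative ones. The level of proteinId359625 (650 bases, 2546 ± 408 CPM per kb) was steadier, at 1663 and 1283 CPM in the sexual, 1894 and 1778 CPM in the vegetative and 23.6 and 25.1 CPM in the protoapothecia libraries.

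There were 9 members at 1000 CPM or more in every mycelium library. Beside proteinId347804, proteinId372372, proteinId382525, proteinId375359 and proteinId359625, these were proteinId235879, proteinId305594, proteinId373460 and proteinId162670, which were named after their values were seen. The steadiest of these was proteinId162670, at 1513, 1206, 1334 and 1316 CPM in the sexual and vegetative libraries in that order, and at 4.83 and 4.26 CPM in protoapothecia. At the other end of abundance, 40 members were under 100 CPM in their lowest mycelium library. The 10 members with the highest mean mycelium level made up 56.1% of the members' summed level there.

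Among the members, those with higher mycelium levels tended to have a smaller percentage left in protoapothecia. Spearman's rho between the mean mycelium CPM and the mean protoapothecia CPM as a percentage of it was -0.32, and Pearson's r on the log2 scale was -0.40, across 97 genes. Both measures contain the mycelium level and the percentage was limited by the choice of genes, so this is a description only.

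The fold between mycelium and protoapothecia was taken from pooled counts over the library totals, with an exact interval that covers counting error only. It ran from 24.2 to 1341 among the members, with a median of 75.1. The fold was at least 100 for 35 members and at least 500 for 10. Those limits follow in part from the choice of genes, which allowed no member with a small fold. On the log2 scale with TMM factors (edgeR's trimmed mean of M-values, which scales each library by the bulk of its genes), the median fitted difference of protoapothecia was -5.54 from sexual and -6.25 from vegetative mycelium. Over all 8861 genes tested the medians were -0.16 and 0.15. These comparisons share the protoapothecia libraries.

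The genes with the smallest percentage left were proteinId382525, proteinId289100, proteinId372372 and proteinId336686. The pooled fold of proteinId382525 was 1341 (interval 1096 to 1660), and the folds against protoapothecia replicates 1 and 2 alone were 1350 and 1333. Sexual replicate 2, its highest library, weighed more, and without it the fold was 884. For proteinId289100 (1005 bases) the levels were 747 and 588 CPM in sexual mycelium, 979 and 1350 CPM in vegetative mycelium, and 0.593 and 1.03 CPM in protoapothecia, from 7 and 13 counts. Its pooled fold was 1128 (interval 730 to 1847).

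The longest member, proteinId336686, has an mRNA of 3776 bases, and its protoapothecia libraries held 2 and 3 counts. The sexual libraries held 1809 and 2167 counts and the vegetative libraries 969 and 1288. Its pooled fold was 629, with a wide interval of 269 to 1938. The 2 members with 0 counts in protoapothecia replicate 2 were proteinId359330, with 2 counts in replicate 1, and proteinId300967, with 6, both named after their values were seen. In the mycelium libraries proteinId359330 was at 57.1, 90.0, 120 and 131 CPM and proteinId300967 at 71.5, 56.3, 67.9 and 63.1 CPM, sexual libraries first.

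What was left in protoapothecia was nearly as concentrated in a few genes as the members' counts in mycelium. The 10 members highest in each library took 58.8% and 59.3% of those counts in the sexual and 55.7% and 55.2% in the vegetative libraries. In protoapothecia the members had 6700 counts in replicate 1 and 5501 in replicate 2. The 10 highest in each library took 55.3% and 51.3% of them. The most abundant there was proteinId235879 (1896 bases), with 960 and 622 counts, or 81.4 and 49.1 CPM, against 1686 and 1693 CPM in sexual and 2775 and 3651 CPM in vegetative mycelium. At the low end, 22 members were under 20 counts in both protoapothecia libraries, and 16 reached 100 counts in at least 1 of them. For the former the percentage left is known only roughly.

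The 2 protoapothecia libraries ordered the members less alike than the mycelium replicates did. Spearman's rho was 0.78 and Pearson's r on the log2 scale 0.79 over the 95 genes counted in both. Over all 97 genes, rho was 0.88 between the sexual and 0.98 between the vegetative replicates. The protoapothecia level was higher in replicate 1 for 58 members and in replicate 2 for 39. The replicates were more than 2-fold apart for 25 of the 95 genes and more than 3-fold apart for 11. The median ratio of the higher to the lower replicate was 1.41 in protoapothecia, 1.29 in sexual mycelium and 1.13 in vegetative mycelium. For the 1635 abundant genes above the 5% limit the same medians were 1.20, 1.25 and 1.12. Members had far fewer counts than those genes in protoapothecia, with medians of 30 and 25 counts. The part of counting error in their wider spread was not tested.

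**Figure D3:**
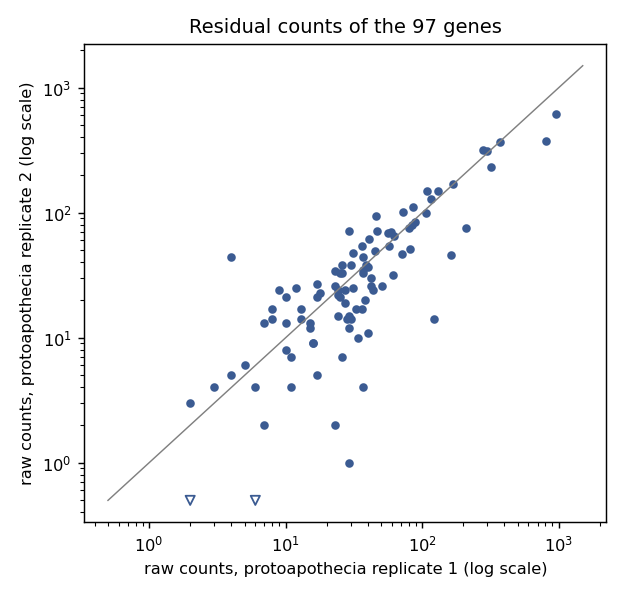
Raw counts of the 97 genes in protoapothecia replicate 1 (x axis) and replicate 2 (y axis), both on log scales, with the line of equal counts. The open triangles are the 2 genes with 0 counts in replicate 2, and the point far above the line at 4 counts in replicate 1 is proteinId375195, with 44 counts in replicate 2.

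Large gaps between the protoapothecia replicates occurred in single genes. Beside proteinId372372, the widest by the rule for named genes was proteinId356309 (1302 bases), with 23 and 2 counts, or 1.95 and 0.158 CPM. Its mycelium levels were 511 and 1104 CPM in the sexual and 1011 and 1239 CPM in the vegetative libraries. The fold was 500 against replicate 1 (interval 333 to 789) and 6185 against replicate 2 (interval 1712 to 51070). The opposite gap was seen in proteinId375195 (1529 bases), with 4 and 44 counts and folds of 415 (interval 162 to 1525) and 40.6 (interval 30.2 to 55.9). A gene with more reads, proteinId305594 (1098 bases), named after its values were seen, had 122 and 14 counts against 1119 and 1998 CPM in sexual and 2346 and 2255 CPM in vegetative mycelium. Its fold was 188 against replicate 1 (interval 157 to 226) and 1756 against replicate 2 (interval 1047 to 3213). The folds of these genes thus depended strongly on which replicate was used.

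Within mycelium, the members ranged from nearly constant to widely variable. The highest of the 4 mycelium libraries was 1.88 times the lowest in the median member, and 1.96 times in the other 1635 abundant genes. All 4 libraries lay within a factor of 2 for 53 members and within a factor of 3 for 78. The 4 steadiest genes were proteinId368227, proteinId359132, proteinId213264 and proteinId349649. The level of proteinId368227 (759 bases) was 60.2, 54.2, 54.5 and 53.4 CPM in the sexual and vegetative libraries in that order, and 1.36 and 0.710 CPM in protoapothecia.

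The next, proteinId359132 (2759 bases), was at 71.0, 69.8, 63.4 and 72.9 CPM in the mycelium libraries and at 1.44 and 1.66 CPM in protoapothecia. For proteinId213264 (759 bases) the values were 91.2, 110, 90.9 and 103 CPM in mycelium and 0.593 and 0.158 CPM in protoapothecia, and for proteinId349649 (2598 bases) they were 73.9, 67.6, 74.1 and 82.8 CPM and 0.678 and 1.10 CPM. In all 4 genes the highest mycelium library was at most 1.23 times the lowest on the scale of library totals. This evenness belongs to that scale. With TMM factors, 2 of the 4 were called lower in sexual mycelium by the edgeR test described below. These were proteinId359132 at a log2 fold change of -0.67 ± 0.23 (SE) and proteinId349649 at -0.87 ± 0.26 (SE). The same test called 35.1% of the members, 40.8% of the abundant mycelial genes and 14.8% of all genes tested lower.

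Replicates of the same mycelium were far apart for a few genes, mostly in sexual mycelium. The sexual replicates were more than 3-fold apart for 4 members and the vegetative replicates for 1. The widest sexual gap was in proteinId356723 (672 bases), at 1890 CPM in replicate 1 and 241 CPM in replicate 2, a ratio of 7.84. Its vegetative libraries, at 395 and 267 CPM, lay between them, and protoapothecia had 2.88 and 0.789 CPM. The gene proteinId380532, described above, had a sexual replicate ratio of 4.65 and also the widest vegetative ratio, 5.81.

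Sexual and vegetative mycelium were then compared within the 97 genes. This contrast entered the choice in both directions. Genes far above sexual mycelium in both vegetative libraries were left out by the ratio limit. The 50 CPM minimum left out genes low in either mycelium, however high in the other. The calls are therefore given beside the background and nothing is read from them. A gene was called at a Benjamini-Hochberg adjusted p under 0.05 in edgeR's quasi-likelihood test over all genes. With TMM factors, 0 of the 97 members were called higher in sexual mycelium, where 30.7% of all 8861 genes tested were, and 34 were called lower, where 14.8% of all genes were. Among the 1741 abundant mycelial genes, 4.25% were called higher and 40.8% lower. Fewer members were called when either vegetative replicate was left out, and the share of all genes called in those fits was not taken.

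The scaling decided the direction of the typical member. With TMM factors the median fitted log2 fold change of sexual over vegetative mycelium was -0.66, and with library totals alone it was 0.055. The median over all genes tested moved by as much, from 0.42 to 1.14, so that the members' median lay 1.08 below that of all genes with TMM factors and 1.09 below it with library totals. The abundant mycelial genes as a whole lay 1.02 below it under both. With library totals 9 members (9.28%) were called higher and 15 (15.5%) lower, where 53.7% and 7.12% of all genes were. Of the 1741 abundant mycelial genes, 383 were called higher and 390 lower with library totals. The authors' deposited table gives DESeq ratios of sexual over vegetative mycelium from 0.14 to 3.17, with 88 members under 1 and a median of 0.54. The abundant mycelial genes have a median of 0.56 in the authors' deposited table, and all genes with a ratio a median of 1.19.

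Counted library by library on the scale of library totals, 29 members had both sexual libraries above both vegetative ones, a pattern found in 73.1% of all genes tested, and 33 had the reverse, found in 13.6%. In the remaining 35 genes the groups overlapped. Of the abundant mycelial genes, 41.9% and 35.2% had these patterns.

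**Figure D4:**
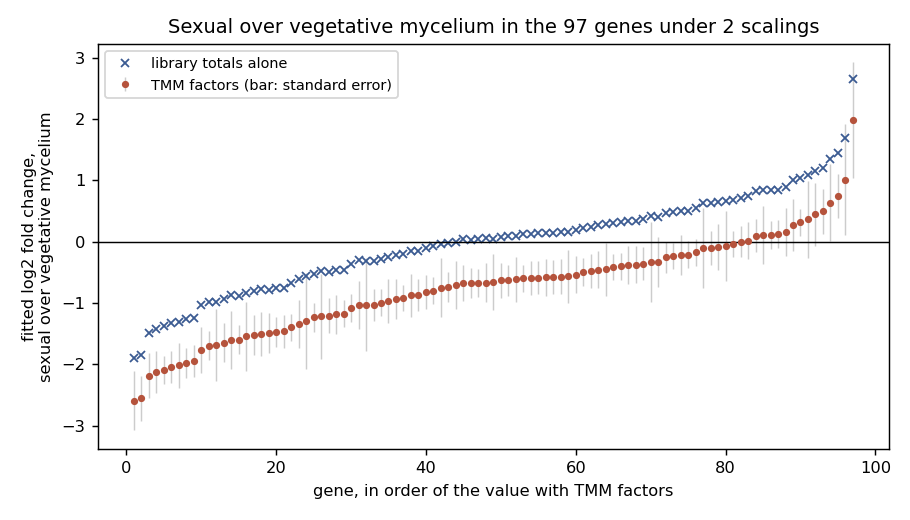
Fitted log2 fold change of sexual over vegetative mycelium for each of the 97 genes, in order of the value with TMM factors (red points, bars are standard errors), with the value from library totals alone (blue crosses). The crosses lie above the points by a near constant step, with medians of 0.055 and -0.66.

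There were 15 members (15.5%) called lower in sexual mycelium under both scalings. So were 7.12% of all genes tested and 22.4% of the abundant mycelial genes. These are the same 15 members as those called lower with library totals. The TMM factors moved the members' values down by a near constant step, so their call with TMM factors is no separate support. These members had fitted log2 fold changes of -2.59 to -1.40 with TMM factors and -1.89 to -0.67 with library totals. The 4 lowest were proteinId343491, proteinId308437, proteinId38930 and proteinId112287. In proteinId343491 (1591 bases) the sexual libraries were at 255 and 122 CPM and the vegetative libraries at 714 and 690 CPM, with 0.933 and 0.316 CPM in protoapothecia. With TMM factors, the log2 fold change was -2.59 ± 0.48 (SE).

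A similar order was seen in proteinId308437 (1761 bases), at 210 and 113 CPM in sexual, 574 and 591 CPM in vegetative and 2.63 and 1.97 CPM in protoapothecia libraries (log2 fold change -2.55 ± 0.37, SE). For proteinId38930 (1881 bases) the levels were 149 and 96.2 CPM in sexual, 396 and 289 CPM in vegetative and 3.56 and 2.05 CPM in protoapothecia libraries (-2.19 ± 0.37, SE). For proteinId112287 (1242 bases) they were 141 and 145 CPM, 428 and 335 CPM, and 4.32 and 2.05 CPM in the same order (-2.13 ± 0.34, SE). Both vegetative libraries were above both sexual libraries in all 4 genes, and both protoapothecia libraries were the lowest.

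The genes with the highest fitted values were proteinId380532, proteinId356723, proteinId356803 and proteinId375195, and none of them was called with TMM factors. With library totals proteinId380532 and proteinId356803 were called higher in sexual mycelium, at 2.66 and 1.44. With TMM factors the value of proteinId380532 was 1.99 ± 0.94 (SE) and that of proteinId356723 was 1.01 ± 0.91 (SE). The size of both values depended strongly on single libraries, and the sign of proteinId356723 did too. Without sexual replicate 1 the value of proteinId356723 turned to -1.24, and without sexual replicate 2 it was 1.82. For proteinId380532 it was 0.39 without sexual replicate 1, 2.70 without sexual replicate 2, 3.73 without vegetative replicate 1 and 1.23 without vegetative replicate 2. The gene proteinId356803 (2036 bases) was at 454 and 228 CPM in sexual, 126 and 124 CPM in vegetative and 5.26 and 5.13 CPM in protoapothecia libraries (0.74 ± 0.36, SE), and its fitted value was 0.075 without sexual replicate 1. For proteinId375195 the levels were 208 and 199 CPM in sexual, 81.5 and 77.7 CPM in vegetative, and 0.339 and 3.47 CPM in protoapothecia libraries (0.64 ± 0.63, SE). The sexual libraries of proteinId356803 and proteinId375195, picked for high fitted values, were above the vegetative ones on the scale of library totals. That order was found in 29.9% of the members, 41.9% of the abundant mycelial genes and 73.1% of all genes tested.

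The mRNA length was not used to choose the genes. Its median was 1325 bases among the members, 1362 bases among the other 1635 abundant genes and 1230 bases over all gene models, and the members ran from 216 to 3776 bases. The shares under 1000 bases were 32.0%, 30.6% and 38.6% in the same order. The 95% order-statistic interval of the members' median was 1203 to 1533 bases. Genes are not replicates, so this interval is a description and no test of a difference in length. Within the members, shorter mRNAs went with higher levels per kb of mRNA (Spearman's rho -0.65 across 97 genes), where the length enters both measures. Length and the percentage left in protoapothecia had a rho of 0.20.

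**Figure D5:**
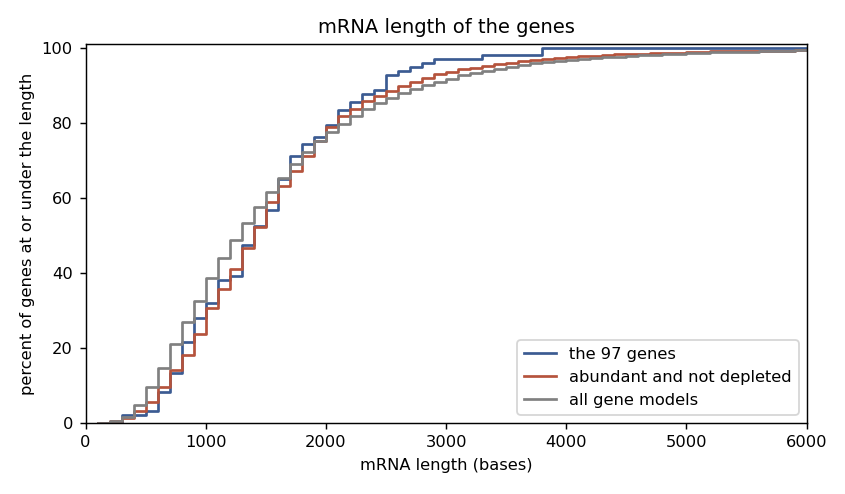
Percentage of genes at or under each mRNA length, in steps of 100 bases up to 6000, for the 97 genes (blue), the abundant mycelial genes above the 5% limit (red) and all gene models (grey). The 3 lines run close together, with medians of 1325, 1362 and 1230 bases.

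The shortest members were proteinId286629, with 216 bases, and proteinId372372. The level of proteinId286629 was 64.5 and 54.4 CPM in sexual, 110 and 125 CPM in vegetative and 2.03 and 1.74 CPM in protoapothecia libraries, with both vegetative libraries above both sexual ones. After proteinId336686, the longest was proteinId352584 with 3723 bases, at 163 and 212 CPM in sexual, 430 and 465 CPM in vegetative and 2.54 and 3.00 CPM in protoapothecia libraries. Both short and long genes were thus found among the members.

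At the 5% limit, proteinId36491 and proteinId318858 were just inside at 4.98% and 4.97% of the lowest mycelium library, and proteinId356033 and proteinId171171 just outside at 5.06% and 5.13%. At the 50 CPM limit, the lowest mycelium library of proteinId311300 was at 51.5 CPM and that of proteinId395621 at 52.1 CPM, while proteinId306501 at 48.5 CPM and proteinId258051 at 46.9 CPM fell outside. At the ratio limit, the lower vegetative library was 2.74 and 2.71 times the higher sexual library for proteinId308437 and proteinId343491, and 3.07 and 3.08 times for proteinId310081 and proteinId339799, which were left out. Membership also followed the scaling. With CPM over TMM effective library sizes the same limits chose 63 genes, of which 56 were among the 97.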

How the data were processed

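RNA sequencing of 6 libraries in 3 groups gave 1 table. Per the file headers, the deposited values used here are raw read counts per gene model, the mRNA length, and the authors' linear ratio of sexual over vegetative mycelium from DESeq, a tool also named in the submitters' processing notes. That ratio is missing for 68 genes. Aligner, counter, genome build, strand setting and handling of reads shared by near-identical genes: not given in the sources used here. The gene lists by function could not be matched to identifiers and were not tested. Columns were assigned by the library title in their names. The members and the rule for named genes were chosen with earlier results of these data known. That rule took members by level per kb, percentage left in protoapothecia, sexual over vegetative fold change, replicate gaps, length, nearness to the limits and steadiness in mycelium.

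Counts were tested with edgeR 4.0.16 (limma 3.58.1, R 4.3.3). The filterByExpr filter kept 8861 genes and left out 761, and TMM factors and a robust quasi-likelihood fit by group on all 6 libraries left 3 residual degrees of freedom. Adjusted p-values cover all genes tested, at a threshold of 0.05, two-sided. Levels are CPM over library totals, and exact (Clopper-Pearson) 95% intervals express counting error alone, as amplified molecules give dependent reads. Chi-square over its degrees of freedom between replicates was 42.0 to 248, so no pair was a duplicate. Alternatives were other scalings, filters and tools (DESeq2 1.42.0), other limits, a replicate block and leaving out each library, for pooled folds chosen after seeing the data. Figures used matplotlib 3.10.9.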

Additional observations from a re-analysis of the deposited data

How the results depend on the processing

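The number of genes followed the limits and the scaling. Against 97 genes, there were 49 with a depletion limit of 2.5%, 172 with 10%, 149 with a 25 CPM minimum, 57 with a 100 CPM minimum, 63 with CPM over TMM and 51 with CPM over RLE effective library sizes. It stayed within 1.5 times with other ratio limits, no minimum count or without any 1 library (103 to 121). Against 34 members called in sexual against vegetative mycelium, 52 were called with RLE factors, 56 by DESeq2, 57 with only the mycelium libraries fitted, and 18 to 41 without 1 library, lowest without vegetative replicates 2 and 1. The lone library left in a group was taken to vary as the rest do. The replicate block gave 32, of which 1 was higher and 31 were lower in sexual mycelium. All members called with RLE factors, by DESeq2 and with only the mycelium libraries were lower. The share of all genes called was not taken in any of these fits. Their counts therefore cannot separate a change in the members from a change in the whole fit. The labels tie no numbers together, and replicate differences correlated at -0.21 between sexual and vegetative mycelium, 0.056 between sexual mycelium and protoapothecia, and -0.035 between vegetative mycelium and protoapothecia.

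The members' median log2 fold change of protoapothecia over sexual mycelium, -5.54, was -5.23 with RLE factors, -5.83 with upper-quartile factors, -6.16 with library totals and -5.65 to -5.44 without 1 library. Over vegetative mycelium, -6.25, it was -6.58 with upper-quartile factors and -6.62 to -6.15 without 1 library. For sexual over vegetative mycelium, -0.66, it was -0.89 with RLE factors and -0.81 to -0.65 without 1 library. With library totals it turned to 0.055, and that of proteinId359132, called at -0.67, to 0.047; both follow from the scaling. Where nothing else is said, the cause was not tested. Genes under 20 counts in protoapothecia limit the precision of the folds.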
